A study of Mus musculus with 12 samples.

Results

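The genes described here are 10 regulators that work during gastrulation in the primitive streak, the organizer and the mesendoderm, the tissue that gives rise to mesoderm and endoderm. They were chosen by name for that role, with earlier results of these data known: Nodal, Lefty1, Lefty2, Cer1, T, Eomes, Mixl1, Gsc, Apela and Fgf8. They are 10 of the 38986 genes listed for each library, and all 10 passed the filter on low counts that left 18405 genes for testing. Nodal is a secreted ligand of the TGF-beta family that acts through activin receptors and the EGF-CFC coreceptors, and it induces its own expression as well as that of its inhibitors Lefty1 and Lefty2. Cer1 is a further secreted antagonist, T (Brachyury), Eomes, Mixl1 and Gsc are transcription factors that are switched on as cells enter the streak or the organizer, Apela is a peptide hormone read by the apelin receptor, and Fgf8 is needed for cells to leave the streak. A teratoma is a tumor in which injected pluripotent cells differentiate into tissues of the germ layers. Which of its cells made these genes was not measured here.

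Teratomas were grown from R1 mouse ES cells that had been transduced with a pEZ-Lv235 lentiviral vector and selected with puromycin, with no step of cloning described. All 4 groups carried the vector, in which the CAG promoter drove nothing in the empty control (ET), non-tagged WT Dnmt3L in WT, or Dnmt3L with a lysine-to-arginine change in K238R and K412R. Dnmt3L is a cofactor of the de novo DNA methyltransferases, and the mutants lack a lysine that can be acetylated, so the design asks how the protein and these lysines bear on differentiation. The cells were cultured in FBS-LIF medium, 5000000 of them were injected under the skin of immunodeficient NOD-Prkdc EM1 mice (males aged 8 weeks), and tumors were collected at day 21. Each group held 3 libraries of poly(A) RNA. The sources used here do not tie a library to a mouse, so p-values measure the spread between these samples. No repeated transduction of a construct is described for these cells, so construct and cell line cannot be told apart. The p-values do not cover a spread between lines. The host was of the same species, so its RNA counts with that of the graft.

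Total counts ranged from 16957677 to 18546100 per library. The Dnmt3l transcript stood at 0.65 to 7.62 CPM (counts per 1000000 counts of the library) in ET, at 165 to 204 CPM in WT and at 26.0 to 38.9 CPM in K412R, whereas the K238R-labelled libraries held 0.54 to 1.89 CPM, the level of ET. These 3 libraries are therefore called the K238R-labelled libraries. Where K238R stands alone in the name of a comparison, replicate or figure group, it gives only their label. A direction drawn from them is one of libraries without a raised Dnmt3l transcript. Of the tissue markers, 5 of 5 for each germ layer were detected, with summed levels of 1166 to 1990 CPM for ectoderm, 211 to 365 CPM for mesoderm and 84.2 to 232 CPM for endoderm over the 12 libraries. The label for cell type names ES cells, while these libraries held markers of all germ layers. WT replicate 1 stood apart from WT replicates 2 and 3 in the genes described here, and leaving out ET replicate 2 also moved counts of calls, so the numbers of the 10 genes called against or in WT are given with and without each of these libraries. Since these are whole tumors, fewer cells of a type and less RNA per cell cannot be told apart.

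The starts of Cer1, T and Eomes are shown because these were the 3 genes called in a comparison below, and because CpG dinucleotides, the sites at which Dnmt3L and its partners act, are frequent in some promoters and rare in others. Each sequence holds the 250 bases before the start of the gene in the RefSeq annotation of GRCm38.p6, 5′ to 3′ on the gene's strand, with CpG in capitals. The counts themselves were made on GRCm39. The Cer1 sequence lies at chr4:82885152-82885401 on the minus strand, that of T at chr17:8434173-8434422 on the plus strand and that of Eomes at chr9:118477939-118478188 on the plus strand.
Cer1: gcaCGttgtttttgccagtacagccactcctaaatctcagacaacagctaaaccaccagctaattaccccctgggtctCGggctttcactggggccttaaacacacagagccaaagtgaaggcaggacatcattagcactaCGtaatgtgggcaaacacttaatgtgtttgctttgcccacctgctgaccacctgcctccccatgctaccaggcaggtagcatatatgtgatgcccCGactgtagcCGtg
T: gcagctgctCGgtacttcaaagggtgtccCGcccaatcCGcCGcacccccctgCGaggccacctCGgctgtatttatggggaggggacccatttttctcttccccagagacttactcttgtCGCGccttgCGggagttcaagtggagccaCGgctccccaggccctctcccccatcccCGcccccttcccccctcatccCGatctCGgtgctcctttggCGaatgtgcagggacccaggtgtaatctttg
Eomes: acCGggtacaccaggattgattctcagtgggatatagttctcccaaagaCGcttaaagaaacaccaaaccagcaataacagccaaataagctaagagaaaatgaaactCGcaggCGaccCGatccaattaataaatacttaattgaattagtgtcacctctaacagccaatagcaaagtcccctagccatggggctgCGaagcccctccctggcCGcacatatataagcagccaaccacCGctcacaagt
The Cer1 stretch held 5 CpG, Eomes 8 and T 14, and the median over 32851 promoters was 6. RefSeq also gave this stretch for Nodal with 3 CpG, Apela with 5 and Gsc with 22, and 85.2% of promoters had fewer CpG than Gsc. The 6 stretches thus ran from fewer CpG than the median promoter to more than most promoters. On both strands, the T-box core letters GGTGTGA (in 3.33% of promoters), the FOXH1 letters AATNCACA (3.18%) and the SMAD palindrome GTCTAGAC (0.167%) were in none of the 6 stretches, and no set of letters searched holds another. The short SMAD letters CAGAC were in that of Cer1, as in 42.2% of promoters, and the TCF/LEF letters CTTTGA in that of T, on the opposite strand, as in 13.8% of promoters. No methylation was measured in these libraries.

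In teratomas with WT Dnmt3L, all 10 genes had lower mean levels than in ET, at 13.4% to 37.0% of the ET mean. In the K238R-labelled libraries they stood between both, at 51.2% to 76.3%, and in K412R they were at 64.4% to 118% of ET. WT replicates 2 and 3 lay below the other 10 libraries for 10 of 10 genes, an order that 12.9% of all tested genes showed. All 3 WT libraries lay below the 9 others for Cer1, Eomes, Gsc, Mixl1 and Apela, 5 of 10 genes, against 3.53% of all tested genes. These orders, and the overlaps given below, were read on CPM scaled by TMM, edgeR's correction for the composition of each library, while levels are given as CPM of the library total.

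**Figure D1:**
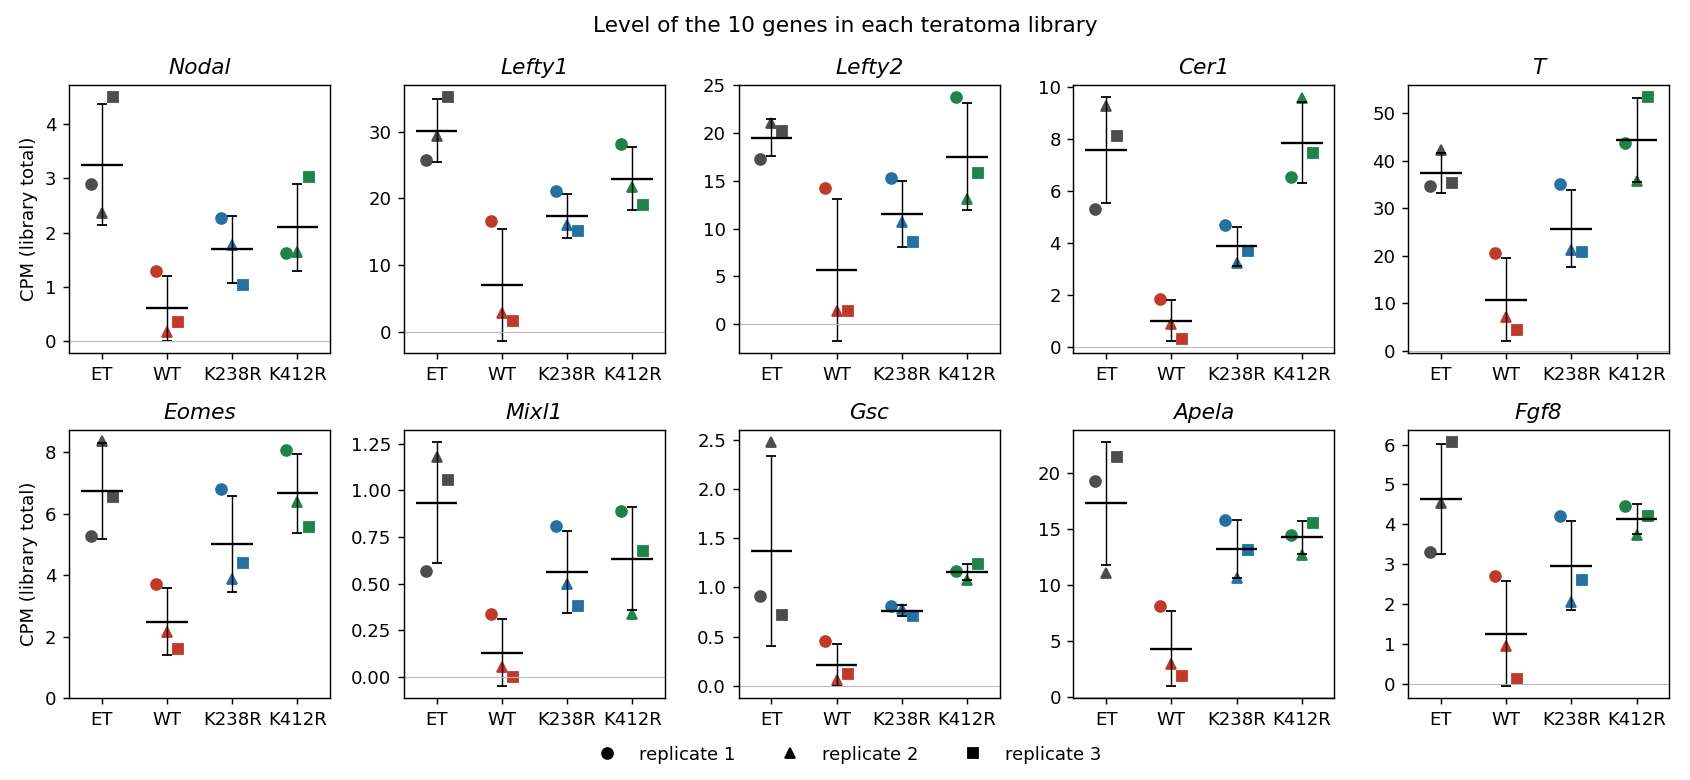
Level of each of the 10 genes as CPM of the library total (vertical axis, a separate scale for each gene) in the ET, WT, K238R and K412R libraries (horizontal axis, 1 symbol per library and replicate number). Long bars are group means and whiskers 1 SD of 3 libraries. WT replicates 2 and 3 are the lowest of all 12 libraries in every panel, and WT replicate 1 lies above them.

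Nodal, the ligand, was read with few counts. Its counts were 51, 40 and 81 for ET, 23, 3 and 6 for WT, 42, 32 and 19 for the K238R-labelled libraries and 29, 29 and 54 for K412R. The mean was 3.25 ± 1.12 CPM (SD, n = 3) in ET and 0.60 ± 0.61 in WT. All WT libraries lay below all ET and K412R libraries, while WT replicate 1, at 1.29 CPM, was above the lowest K238R-labelled library, at 1.03 CPM. With edgeR's quasi-likelihood test, WT differed from ET by a log2 fold change of -2.41 (standard error 0.58, adjusted p = 0.100).

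Lefty1 and Lefty2, the feedback inhibitors that Nodal signalling induces, stood in WT replicate 1 at 7.79 and 10.3 times the mean of WT replicates 2 and 3. Lefty1 stood at 25.8, 29.4 and 35.2 CPM for ET, 16.6, 2.73 and 1.54 for WT, 21.1, 16.0 and 15.0 for the K238R-labelled libraries and 28.1, 21.8 and 19.03 for K412R. Lefty2 stood at 17.3, 21.0 and 20.2 CPM for ET, 14.3, 1.34 and 1.43 for WT, 15.3, 10.7 and 8.58 for the K238R-labelled libraries and 23.7, 13.1 and 15.8 for K412R. For both genes WT replicate 1 was below every ET library but within the range of the K238R-labelled libraries, and for Lefty2 also within that of K412R. In WT relative to ET the log2 fold change came to -2.11 for Lefty1 (standard error 0.61, adjusted p = 0.109 by edgeR's test) and -1.78 for Lefty2 (standard error 0.68, adjusted p = 0.132). The SD of the WT group exceeded its mean for both, with 6.97 ± 8.39 CPM for Lefty1 and 5.68 ± 7.45 CPM for Lefty2.

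The division of reads between both Lefty genes is uncertain, since 25.0% of the 31-base words of the longest coding Lefty1 transcript (GENCODE M21) also occur in Lefty2. The ratio of Lefty1 to Lefty2 counts was 1.40 to 1.74 for ET, 1.08 to 2.04 for WT, 1.39 to 1.75 for the K238R-labelled libraries and 1.19 to 1.67 for K412R. Their summed counts were 12.3 to 21.4 times those of Nodal in ET and 8.67 to 24.3 times in WT, so the inhibitors and their inducer were low side by side. With 3 and 6 Nodal counts in WT replicates 2 and 3, that ratio is imprecise there.

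Cer1, a secreted antagonist of Nodal and BMP made in the anterior endoderm, had the largest fold change of the 10 with all libraries in the fit. Without WT replicate 1 its log2 fold change was -3.62, and Mixl1 (-4.71), Gsc (-3.86), Lefty1 (-3.77) and Lefty2 (-3.77) had larger ones. Cer1 counts were 93, 157 and 146 for ET, 33, 16 and 5 for WT, 87, 58 and 68 for the K238R-labelled libraries and 117, 169 and 133 for K412R. The WT libraries were the lowest of all, the K238R-labelled libraries formed a level of their own below all ET and K412R libraries, and ET and K412R overlapped. Mean levels were 7.55 ± 2.04 CPM for ET, 1.01 ± 0.79 for WT, 3.87 ± 0.75 for the K238R-labelled libraries and 7.85 ± 1.55 for K412R. WT was below ET by a log2 fold change of -2.88 (standard error 0.45), and this was the gene nearest to the threshold (adjusted p = 0.0537).

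T, the T-box factor of the streak and the notochord, stood at 34.6, 42.3 and 35.4 CPM for ET, 20.7, 7.14 and 4.45 for WT, 35.0, 21.3 and 20.8 for the K238R-labelled libraries and 43.8, 35.8 and 53.4 for K412R. WT lay below ET and K412R in every library, but WT replicate 1 was so close to the lowest K238R-labelled library that their order turned with the scaling. For T, WT relative to ET gave a log2 fold change of -1.79 (standard error 0.42, adjusted p = 0.100). Eomes, the T-box factor that acts early in the streak for endoderm and cardiac mesoderm, was read at 5.29, 8.37 and 6.56 CPM for ET, 3.71, 2.17 and 1.60 for WT, 6.79, 3.89 and 4.40 for the K238R-labelled libraries and 8.08, 6.39 and 5.56 for K412R. The WT libraries were again the 3 lowest, and the other groups overlapped. Its log2 fold change was -1.41 (standard error 0.32, adjusted p = 0.100). Gm33460, a gene model on the opposite strand that overlaps Eomes, held 0 to 3 counts in a library.

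The homeobox factors Gsc, an organizer gene, and Mixl1, a mesendoderm gene, were read with fewer counts than the others. Gsc counts were 16, 42 and 13 for ET, 8, 1 and 2 for WT, 15, 14 and 13 for the K238R-labelled libraries and 21, 19 and 22 for K412R. Mixl1 counts were 10, 20 and 19 for ET, 6, 1 and 0 for WT, 15, 9 and 7 for the K238R-labelled libraries and 16, 6 and 12 for K412R. In both genes the WT libraries were the lowest on scaled CPM, although Mixl1 had 6 counts both in WT replicate 1 and in K412R replicate 2. The 0 in WT replicate 3 allows up to 3 counts, or 0.171 CPM, for counting error only. Log2 fold changes of WT against ET were -2.66 for Gsc (standard error 0.63, adjusted p = 0.100) and -2.75 for Mixl1 (standard error 0.76, adjusted p = 0.104).

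Apela, the early ligand of the apelin receptor, stood at 19.3, 11.1 and 21.5 CPM for ET, 8.10, 2.90 and 1.83 for WT, 15.8, 10.6 and 13.1 for the K238R-labelled libraries and 14.5, 12.7 and 15.5 for K412R. All WT libraries were below the 9 others, and the remaining groups overlapped. WT relative to ET came to a log2 fold change of -2.004 (standard error 0.42, adjusted p = 0.0972). For this gene, 28.3% of the 31-base words of its transcript are shared with Gm45886, an overlapping gene model on the same strand that was not analysed here. Fgf8 stood at 3.30, 4.54 and 6.06 CPM for ET, 2.70, 0.95 and 0.11 for WT, 4.21, 2.06 and 2.61 for the K238R-labelled libraries and 4.46, 3.73 and 4.21 for K412R. WT lay below ET and K412R without overlap, and WT replicate 1 was within the range of the K238R-labelled libraries. WT relative to ET gave a log2 fold change of -1.87 for it (standard error 0.62, adjusted p = 0.113).

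Of the 10 genes, 0 passed an adjusted p of 0.05 in WT against ET with edgeR's quasi-likelihood test, as 9 of 18405 genes did (0.0489%). By unadjusted p under 0.05, 10 of 10 were lower, where 15.1% of all genes were. By that p with a change of at least 2-fold, 10 of 10 were lower against 2.76% of all genes. Without overlap between the groups, 10 of 10 were lower against 10.5%. Since the 10 genes were chosen with earlier results known, these counts are descriptions. The median log2 fold change of the 10 genes was -2.06, and that of all tested genes -0.01. DESeq2 on the same counts called 7 of the 10, and 11.6% of the 16614 genes to which it gave an adjusted p. The count also moved with single libraries. Without WT replicate 1, edgeR called 10 of 10 and 7.55% of all genes, and without ET replicate 2 it called 7 of 10 and 31.4% of all genes.

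**Figure D2:**
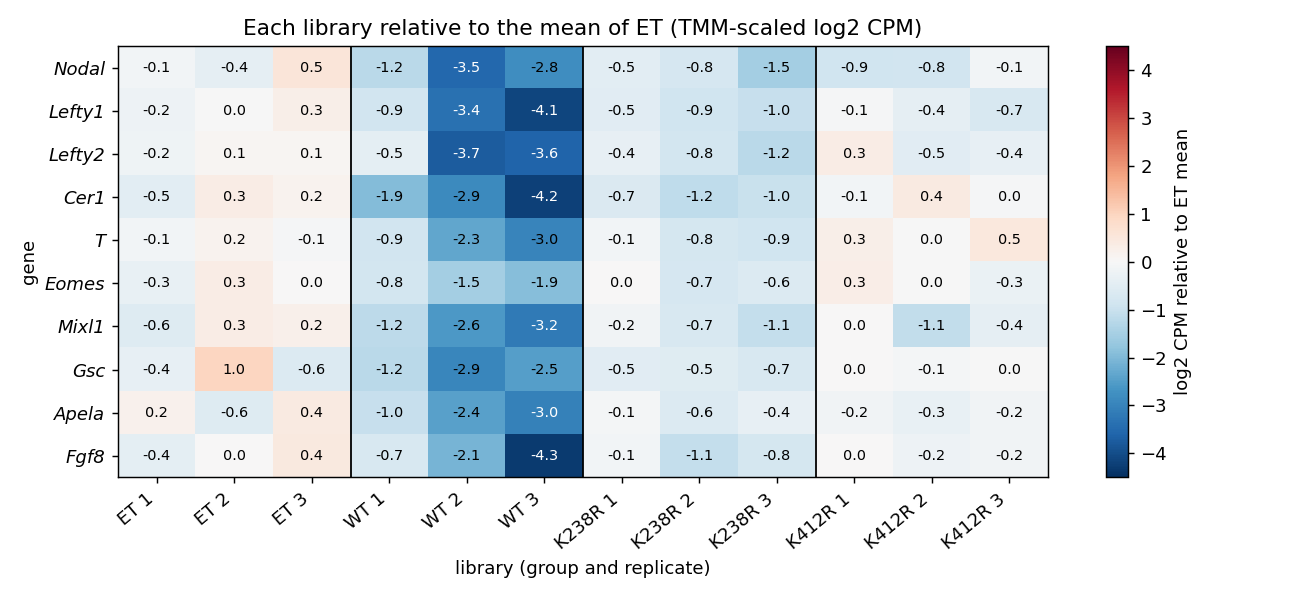
Each library's TMM-scaled log2 CPM of the 10 genes (rows) relative to the mean of ET (blue lower, red higher; columns are libraries by group and replicate). WT replicates 2 and 3 form the dark columns, WT replicate 1 is paler, and the K412R columns are mixed around 0.

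WT replicate 1 held 1.97 to 12.1 times the mean level of WT replicates 2 and 3 over the 10 genes, with a median of 5.08. It stood at 24.6% to 73.2% of the ET mean, and WT replicates 2 and 3 together at 2.98% to 28.0%. Its Dnmt3l transcript was the lowest of the WT libraries, at 165 CPM against 203 and 204. Whether this bears on the 10 genes was not tested. Between the WT libraries the 10 genes varied together, and among the K238R-labelled libraries replicate 1 was highest for every gene. Within ET and K412R they parted. Relative to the ET mean of log2 CPM, ET replicate 2 held Gsc at 0.98 and Apela at -0.59. K412R replicate 2 held Cer1 at 0.42 and Mixl1 at -1.12. Over the 12 libraries, Pearson's r between the log2 levels of any pair of the 10 genes was 0.79 to 0.98 for the 45 pairs, with a median of 0.92. After the mean of each group was taken away, r was 0.23 to 0.95 with a median of 0.77, with WT replicate 1 among the points. These points share their libraries and the difference between the groups, so the correlations are descriptions of these 12 samples.

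K412R and the K238R-labelled libraries were compared with WT, since the design asks whether loss of an acetylated lysine changes the effect of Dnmt3L. All comparisons with WT share the same 3 WT libraries. In K412R, 3 of the 10 genes rose against WT, where 1.34% of all tested genes did and 2.04% changed in either direction. Cer1 was higher by a log2 fold change of 2.94 (standard error 0.45, adjusted p = 0.0130 by edgeR's test), T by 2.03 (standard error 0.42, adjusted p = 0.0367) and Eomes by 1.41 (standard error 0.32, adjusted p = 0.0479). The remaining 7 had log2 fold changes between 1.63 for Lefty2 and 2.44 for Gsc, with adjusted p between 0.0579 for Apela and 0.188 for Lefty2. DESeq2 called 6 of 10, where it called 9.67% of all genes. By unadjusted p under 0.05, 10 of 10 were higher against 10.2% of all genes, and without overlap 9 of 10, all but Lefty2, against 15.4%. The Dnmt3l transcript itself was lower than in WT by a log2 fold change of -2.49 in K412R (standard error 0.50, adjusted p = 0.0367 by edgeR's test). In the K238R-labelled libraries it was lower by -7.37 (adjusted p = 0.00251 by the same test). In K412R against WT, the changed lysine and the level of the transcript cannot be told apart. The K238R-labelled libraries held no raised Dnmt3l transcript, so their comparison with WT cannot inform on the changed lysine.

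The calls in K412R depended on which libraries were in the fit. When each library was left out in turn, the number of the 10 genes called against WT was between 0 and 10. It was 0 without WT replicate 2, WT replicate 3, K412R replicate 1 or K412R replicate 3, where 0.0489% to 0.25% of all genes were called, and 1 without ET replicate 1, K238R replicate 3 or K412R replicate 2, where 0.945% to 1.03% were. It was 4 without ET replicate 3 (3.71% of all genes), 5 without ET replicate 2 (8.35%) and 10 without WT replicate 1 (5.79%). The direction was up for 10 of 10 genes in each of these fits.

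In the K238R-labelled libraries, 0 of the 10 genes passed the adjusted threshold against WT, as 0.223% of all genes did. By unadjusted p under 0.05, 7 of 10 were higher, where 7.93% of all genes were, and 5 of 10 lay above WT without overlap, where 11.4% did: Cer1, Eomes, Gsc, Mixl1 and Apela. Log2 fold changes ran from 0.97 for Eomes to 2.01 for Mixl1. Cer1 came nearest to a call (1.89, standard error 0.45, adjusted p = 0.0974 by edgeR's test), followed by Apela (1.59, standard error 0.42, adjusted p = 0.107). DESeq2 called 2 of 10, where it called 4.27% of all genes. Without WT replicate 1, edgeR called 5 of 10 and 0.31% of all genes, without ET replicate 2 it called 2 of 10 and 4.52%, and in the other fits that each left out 1 library, 0 were.

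**Figure D3:**
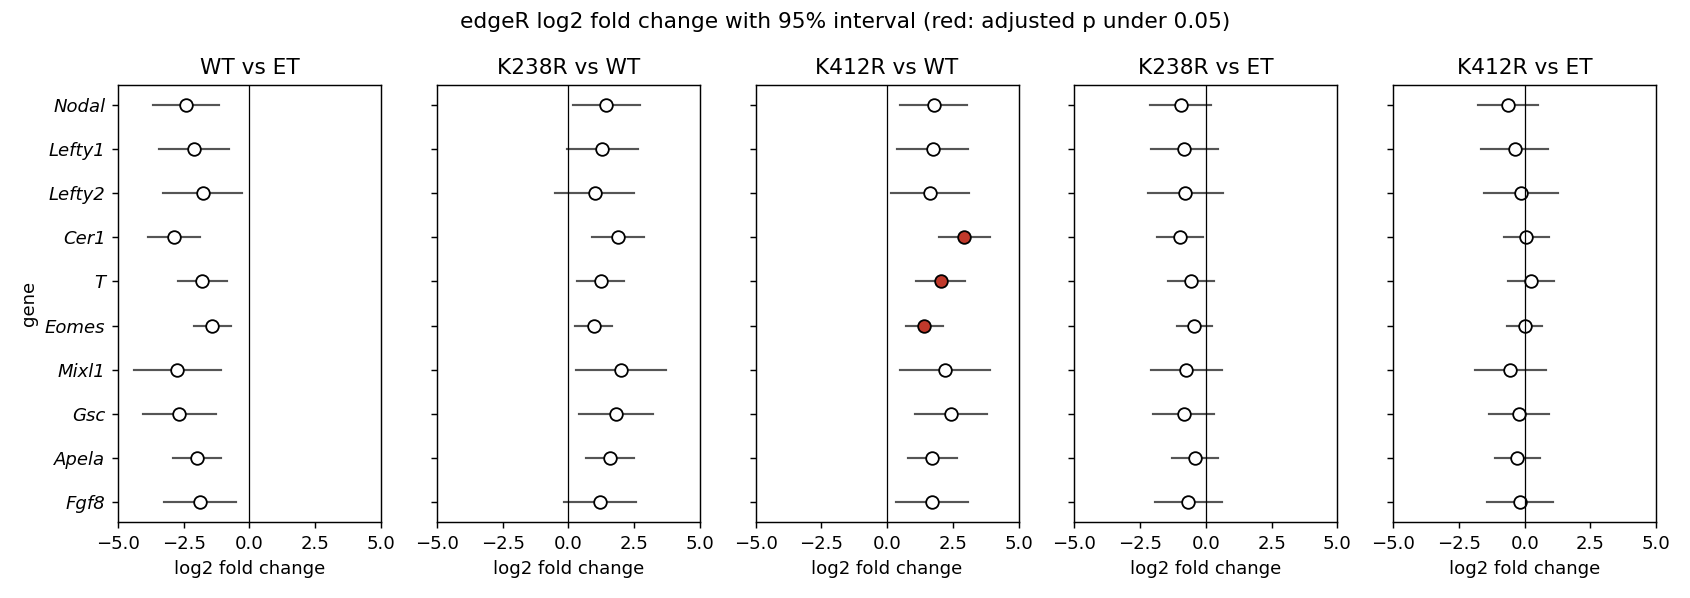
edgeR log2 fold change (horizontal axis) of the 10 genes (rows) in 5 comparisons, with 95% confidence intervals as lines and filled points for adjusted p under 0.05. All points lie left of 0 in WT vs ET. They lie right of 0 in K412R and in the K238R-labelled libraries against WT, with Cer1, T and Eomes filled in K412R vs WT.

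Against ET, K412R had small differences in both directions. Of the 10 genes, 8 had lower and 2 higher means, and the groups overlapped for all 10, where 5.87% of all genes lay higher and 5.40% lower without overlap. With edgeR, 0 of the 10 passed the adjusted threshold, as did 0 of all 18405 tested genes. By unadjusted p under 0.05, 0 of the 10 differed, where 4.38% of all genes were higher and 3.53% lower. DESeq2 called 0 of the 10 and 0.524% of all genes. Log2 fold changes ran from -0.64 for Nodal (95% interval -1.78 to 0.50) to 0.25 for T (-0.62 to 1.11). For Cer1 the difference was 0.06 (interval -0.78 to 0.91), and for Eomes it was near 0 (-0.67 to 0.67). These intervals are not adjusted for the number of genes tested and are not limits of detection. The Dnmt3l transcript, higher in K412R by a log2 fold change of 3.29, was itself not called against ET (adjusted p = 0.219 by edgeR's test).

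The K238R-labelled libraries had lower means than ET for 10 of 10 genes, by log2 fold changes between -0.41 for Apela and -0.98 for Cer1. None of these passed the adjusted threshold with edgeR, where 0 of 18405 genes did, or with DESeq2, where 0.0761% of all genes did. At an unadjusted p under 0.05, 1 of 10 was lower, where 3.09% of all genes were. It was Cer1, with an adjusted p = 0.806 by edgeR. Cer1, Nodal, Lefty1 and Lefty2 lay below ET without overlap, 4 of 10, where 4.88% of all genes did. These 4 are the ligand and its antagonists, but 8 of the 63 pathway genes described below also lay below ET without overlap. For Nodal the gap was narrow, with 2.26 CPM in K238R replicate 1 and 2.36 CPM in ET replicate 2. K412R had higher means than the K238R-labelled libraries for 10 of 10 genes. Of these, 0 were called by edgeR (0.0217% of all genes) or by DESeq2 (2.22%). At an unadjusted p under 0.05, 1 of 10 was higher (7.04% of all genes). That gene was Cer1, with a log2 fold change of 1.05 (95% interval 0.18 to 1.92, adjusted p = 0.322 by edgeR's test). T followed with 0.81 (interval -0.07 to 1.68) and Eomes with 0.44 (interval -0.23 to 1.11). Cer1, T and Gsc lay higher in K412R without overlap, 3 of 10, where 10.7% of all genes did.

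Per kilobase of the longest coding transcript, Lefty1, T and Apela were the highest of the 10 in ET, at 18.6 ± 2.92, 18.3 ± 2.08 and 17.7 ± 5.61 CPM per kb, and these neighbours did not differ beyond their spread. Lefty2 followed at 7.89 ± 0.79, then Cer1 at 4.34 ± 1.18 and Fgf8 at 3.97 ± 1.18, which again were within each other's spread. Eomes, Nodal and Gsc were at 1.89 ± 0.44, 1.55 ± 0.53 and 1.08 ± 0.76, and Mixl1 was lowest at 0.41 ± 0.14. In WT the leading places were taken by T at 5.26 ± 4.25, Apela at 4.38 ± 3.44 and Lefty1 at 4.30 ± 5.18, and Mixl1 was again last at 0.06 ± 0.08. The places from Lefty2 downwards differed by at most 2 ranks between ET and WT.

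The other genes of these pathways were read from lists of 20 Nodal pathway genes, 28 streak, node and mesendoderm genes, 18 FGF8 pathway genes and 2 apelin receptor pathway genes, of which 63 of 68 passed the filter on low counts. In WT against ET, 0 of the 63 were called by edgeR. At an unadjusted p under 0.05, 23 of 63 were lower and 1 higher, where 15.1% of all genes were lower and 14.0% higher. DESeq2 called 13 of the 57 to which it gave an adjusted p, where it called 11.6% of all genes. Their median log2 fold change was -0.20, far nearer to that of all genes than that of the 10 members. The median was -0.39 for the Nodal pathway, -0.20 for the streak list, -0.13 for the FGF8 list and 0.21 for the apelin list. The 3 genes with the smallest p were Dkk1, a secreted Wnt inhibitor of the anterior endoderm (log2 fold change -2.28, standard error 0.42, adjusted p = 0.0878), Foxa2, a factor of node, notochord and endoderm (-1.55, standard error 0.31, adjusted p = 0.0972), and Cnpy1, an FGF signalling modulator (-1.12, adjusted p = 0.0972).

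**Figure D4:**
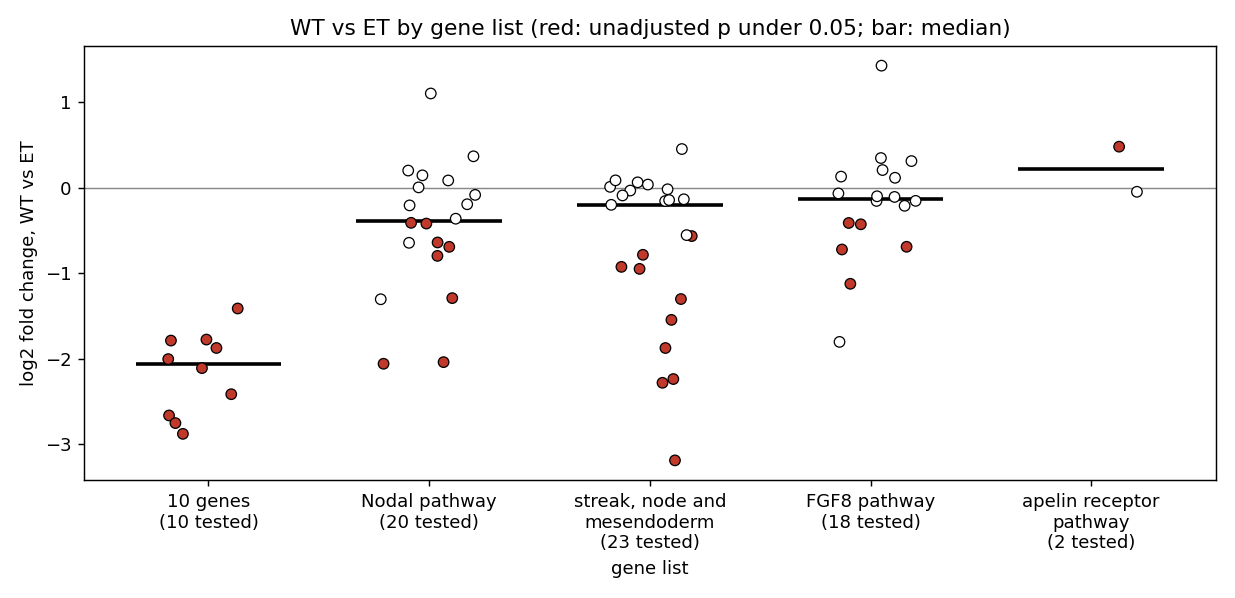
edgeR log2 fold change of WT against ET (vertical axis) for the 10 genes and for the other genes of their pathways (horizontal axis, number tested below each name). Each point is a gene, filled where the unadjusted p was under 0.05, and bars are medians. The 10 genes lie between -1.41 and -2.88, and the bars of the other lists lie between -0.39 and 0.21.

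The Nodal pathway held genes with large and with small differences. The mean of Foxh1, the nuclear partner of the SMADs, was 7.22 CPM for ET and 1.74 for WT, a log2 difference of -2.04 (standard error 0.52, adjusted p = 0.100), while the means stood at 4.08 and 4.36 CPM for the K238R-labelled libraries and for K412R. Chosen after their values were seen, the coreceptor Tdgf1 had a log2 fold change of -2.06 (standard error 0.74, adjusted p = 0.121 by edgeR's test). The activin receptors ran from -0.64 for Acvr2b (standard error 0.26) to 1.10 for Acvr1c (standard error 0.74). Between them, Acvr1b had 0.00 (standard error 0.08) and Acvr2a 0.14 (standard error 0.11). The signal carriers Smad2, Smad3 and Smad4 had -0.20 (standard error 0.12), -0.80 (standard error 0.20) and -0.42 (standard error 0.15). None of these passed the threshold in WT against ET. The receptor of Apela, Aplnr, had a higher mean in WT than in ET (0.48, standard error 0.20, adjusted p = 0.147), the opposite sign to its ligand, and that of the other ligand, Apln, was -0.05.

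In K412R against WT, 2 of the 63 pathway genes rose, Dkk1 (log2 fold change 1.92, standard error 0.41, adjusted p = 0.0411 by edgeR's test) and Fgf5, an FGF of the epiblast (2.14, standard error 0.48, adjusted p = 0.0446), and 0 fell, where 2.04% of all genes were called. At an unadjusted p under 0.05, 19 were higher and 2 lower, where 10.2% of all genes were higher and 12.5% lower. In the K238R-labelled libraries, 0 were called against WT by edgeR and 5 by DESeq2 (4.27% of all genes), and 11 were higher and 3 lower at an unadjusted p under 0.05 (7.93% and 9.61% of all genes). The smallest p there was that of Aplnr, lower by a log2 fold change of -0.88 (standard error 0.20, adjusted p = 0.0931), before Foxa2 (1.24, adjusted p = 0.104) and Dkk1 (1.56, adjusted p = 0.110). In the 3 comparisons without WT, edgeR called 0 of the 63 and at most 0.0217% of all genes. At an unadjusted p under 0.05, between 1 and 6 were higher and between 1 and 3 lower. By that p, 2.52% to 7.04% of all genes were higher and 3.09% to 4.82% lower. Without WT replicate 1, 15 of the 63 were called in WT against ET, 5 in K238R against WT and 10 in K412R against WT, where 7.55%, 0.31% and 5.79% of all genes were.

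Genes whose levels ran most like those of the 10 members were found by Pearson's r of log2 CPM over the 12 libraries among 16409 genes, a description of libraries that share their group differences. For Apela they were 9030622O22Rik, Foxa2 and Upp1, with r between 0.98 and 0.99. For T they were Samd3 (0.99), the notochord factor Noto (0.97) and Pkd1l1 (0.97). Noto also came first for Cer1 (0.96), and its mean was 2.64 CPM for ET, 0.28 for WT, 1.51 for the K238R-labelled libraries and 2.47 for K412R. For Nodal the list was led by Foxh1 (0.96), before Rps29 and Saal1 with 0.95 each. Pou5f1, a factor of pluripotent cells, was among those of Lefty1 (0.99), beside Pkd1l1 and Car4 (0.99 each), and Nanog, another such factor, among those of Mixl1 (0.96), between Car4 and Pkd1l1 (0.96 each). Fgf5 led for Eomes and Gsc (0.95 each), which also shared Trh (0.94 each), followed by Samd3 for Eomes and Gm40383 for Gsc. Trh, Fau and Car4 (0.97 each) led for Lefty2, Gm39529, Car4 and Nphs1 (0.96 each) for Fgf8, and Trh and Pkdcc (0.95 each) followed Noto for Cer1.

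Marker lists of cell types that a teratoma can hold were read beside these genes. The 12 pluripotency markers, all detected and led by Pou5f1, summed to 81.1, 76.4 and 173 CPM for ET, 76.0, 21.1 and 15.7 for WT, 78.3, 70.0 and 42.0 for the K238R-labelled libraries and 66.7, 67.8 and 54.7 for K412R. In this sum WT replicates 2 and 3 were the lowest too, and WT replicate 1 was near ET replicate 2. Dppa2 was at 0 in WT replicates 2 and 3, and Fgf4 at 0 in WT replicate 2. The order did not hold for every marker. Esrrb held 6.02 and 4.62 CPM in WT replicates 2 and 3, where K412R replicate 3 held 3.70. Tfcp2l1 held 9.64 and 8.21 CPM there, where K238R replicate 3 held 8.09. In K412R, the marker sums were below all of ET while the 10 genes were not. Tdgf1, Gdf3 and Fgf4 of this list are also in the pathway lists.

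Notochord and floor plate markers, 9 of 9 detected, summed to 1269 to 1751 CPM for ET, 617 to 974 for WT, 1095 to 1663 for the K238R-labelled libraries and 1305 to 1803 for K412R, with Ntn1 the highest and Noto at 0 for WT replicate 3. WT lay below the other groups without overlap. Foxa2, Noto, Chrd and Nog stand in this list and in the streak list. The 10 trophoblast markers, all detected, summed to 8.20 to 16.9 CPM for ET and 3.29 to 7.93 for WT. They summed to 10.2 to 32.9 for the K238R-labelled libraries and 10.9 to 13.2 for K412R. Gcm1 and Prl3d1 were at 0 in all WT libraries, and also in ET replicate 2 and K412R replicate 2. Elf5 (1.03 against 0.81 CPM) and Ascl2 (0.54 against 0.44) had higher means in WT than in ET, while the other markers had lower ones. Germ cell markers, 10 of 10 detected and led by Sohlh2, summed to 27.7 to 131 CPM for ET, 14.3 to 28.9 for WT, 63.1 to 69.8 for the K238R-labelled libraries and 33.3 to 50.04 for K412R. The part of these cell types in the levels of the 10 genes was not tested.

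The 5 endoderm markers (Afp, Epcam, Vil1, Cdh17 and Foxa1) summed to 129 to 132 CPM in ET and 84.2 to 108 in WT. Foxa1, which is also in the notochord and floor plate list, had means of 95.7 CPM in ET and 64.0 in WT. Means in ET and WT were 32.5 and 29.5 for Epcam, 1.14 and 0.91 for Afp and 1.14 and 0.75 for Vil1. Cdh17 was higher in WT, at 0.36 and 0.73. The remaining lists overlapped between ET and WT. Visceral and yolk sac endoderm markers, a tissue that also makes Cer1 and Lefty1 in the embryo, summed to 29.4 to 46.8 CPM for ET, 16.9 to 35.0 for WT, 26.9 to 52.0 for the K238R-labelled libraries and 37.4 to 45.9 for K412R. Midbrain and hindbrain markers, a region in which Fgf8 is made, summed to 52.3 to 150 CPM for ET, 60.6 to 85.4 for WT, 72.5 to 146 for the K238R-labelled libraries and 50.5 to 65.2 for K412R. Cortical progenitor markers, beside which Eomes is made, were at 37.7 to 69.2, 36.2 to 50.8, 36.1 to 66.3 and 28.8 to 44.2 CPM in the same order of groups. The sum of the heart markers was, in its mean, higher in WT than in ET, at 14.0 to 39.7 CPM for ET, 23.7 to 61.2 for WT, 13.03 to 36.8 for the K238R-labelled libraries and 15.1 to 20.1 for K412R. That difference was one of Tnnt2, a troponin with a mean of 11.1 CPM in ET and 25.4 in WT, while Tnni3, Myh6 and Nppa had lower means in WT. T and NK cell markers, whose cells can also make Eomes, summed to at most 2.53 CPM in any library.

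**Figure D5:**
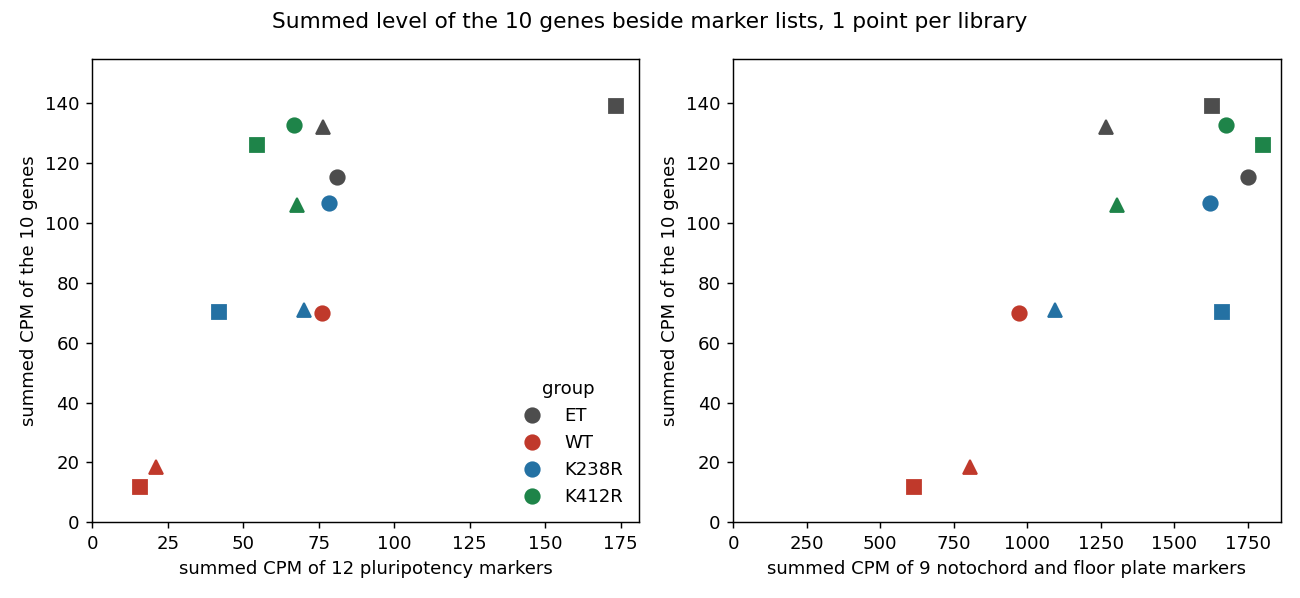
Summed CPM of the 10 genes (vertical axis) against the summed CPM of the pluripotency markers and of the notochord and floor plate markers (horizontal axes), with 1 point per library, colored by group, with circles, triangles and squares for replicates 1, 2 and 3. WT replicates 2 and 3 lie at the lower left of both plots, at 18.4 and 11.7 CPM of the 10 genes, and ET replicate 3 lies far to the right in the plot of pluripotency markers.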

How the data were processed

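Gene-level RNA abundance was measured in 12 teratoma libraries, 3 for each of the 4 groups, prepared with the CORALL V2 kit from poly(A) RNA for paired-end sequencing. Fastp served for trimming, STAR for alignment and Salmon for quantification, on GRCm39 according to the labels, and the authors deposited the estimated counts per gene symbol as whole numbers without normalization. Their notes also name GATK. Versions of these tools, the annotation and any use of molecular identifiers were not found in the parts of the sources used here. Groups came from the sample labels.

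The 10 genes, the pathway and marker lists and the choice of libraries left out together were made with earlier results of these data known. From the deposited estimated counts, edgeR 4.0.16 (R 4.3.3) was used for TMM scaling, its filter on low counts, which kept 18405 of 38986 genes, and its robust quasi-likelihood test with 1 mean per group over all 12 libraries. P-values were adjusted by the Benjamini-Hochberg method over all tested genes, and a gene was called at an adjusted p under 0.05. The study's methods name DESeq2, which was run as an alternative in the version at hand (1.42.0) over the same genes. Standard errors were derived from the F statistic, and intervals are 95%. Members were all named. Pathway genes were named where called or, failing that, for the 3 smallest p-values, and for each member the 3 non-members of highest Pearson's r of log2 CPM over 12 libraries, with a mean of at least 1 CPM. The test was tried first on simulated counts. Total counts of 16957677 to 18546100 per library leave genes of a few counts imprecise, and replicates differed by more than counting noise. Alternatives were other size factors, no filter, fits of 2 groups alone, a replicate block, and each library left out in turn.

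Promoter stretches were taken from RefSeq for 6 of the 10 genes, and shared 31-base words were counted in GENCODE M21 transcripts. Both are on GRCm38, and no position in them was carried over to GRCm39.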

Additional observations from a re-analysis of the deposited data

How the results depend on the processing

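In WT against ET, edgeR called 0 of the 10 genes, also with DESeq2's size factors and in a fit of these 2 groups alone. DESeq2 called 7 (11.6% of all genes), no filter on low counts gave 1 (0.109%), and leaving out ET replicate 2 and WT replicate 1 together gave 10 (37.8%). In K238R against WT the 0 calls became 2 with DESeq2 (4.27%) and 10 without both libraries (11.7%), and in K412R against WT the 3 calls became 6 (9.67%) and 10 (18.5%). Over the fits that left out 1 library, the range was 0 to 10 in WT against ET (0% to 31.4% of all genes). It was 0 to 5 in K238R against WT (0.0109% to 4.52%) and 0 to 10 in K412R against WT (0.0489% to 8.35%). In the 3 comparisons without WT it was 0, where 0% to 1.58% of all genes were called. The direction of the 10 genes was the same under all 18 alternatives in each comparison with WT. DESeq2 gave no adjusted p for Gsc and Mixl1 in WT against ET and for Mixl1 in K412R against WT.

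Of the 63 pathway genes, the 0 calls in WT against ET became 13 with DESeq2 (11.6% of all genes) and 1 without the filter (0.109%). Without both libraries 26 were called, where 37.8% of all genes were. Leaving out each library gave 0 to 18, with 18 in the fit without ET replicate 2, where 31.4% of all genes were called. In K238R against WT the 0 calls became 5 with DESeq2 (4.27% of all genes) and 13 without both (11.7%). The range over single libraries was 0 to 5. In K412R against WT the 2 calls became 10 with DESeq2 (9.67% of all genes) and 7 in the fit of 2 groups alone (9.75%). Without both they became 18 (18.5%). The range over single libraries was 0 to 11, with 11 in the fit without ET replicate 2 (8.35%). The shares of all genes in the other fits are those above. With a replicate block, 6 of the 10 genes and 9 pathway genes were called in WT against ET (5.03% of all genes), 2 pathway genes in K238R against WT (1.1%), and 6 pathway genes in K412R against WT (6.15%). Replicate numbers did not pair the samples, since same-numbered libraries had correlations of -0.36 to 0.32 over 18 pairs, and 3 of 12 libraries correlated best with one of their own number.

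Signs turned only in comparisons without WT, for genes not called there. In K412R against ET, Eomes was 0.0035 with DESeq2's size factors and with DESeq2, and 0.19 without both libraries, where Gsc was 0.52. Over the fits without 1 library, Cer1 ran from -0.14 to 0.25, Lefty2 from -0.45 to 0.015, Eomes from -0.18 to 0.20, Gsc from -0.52 to 0.53 and Fgf8 from -0.36 to 0.097. In K412R against K238R, Mixl1 ran from -0.15 to 0.54. The cause of these changes was not tested. Mixl1, Gsc and Nodal had 0 to 8 counts in most WT libraries, which limits the precision of their folds. Library totals without Gm26917, a single RNA that took 7.47% to 13.9% of the counts, moved 5 group means of the 10 genes by more than 1 SD.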
